A study of Mus musculus with 6 samples.

Results

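The hemoglobin and erythroid transcripts of the mouse heart are described here as 7 genes: the adult alpha globin genes Hba-a1 and Hba-a2, the adult beta globin genes Hbb-bs and Hbb-bt, and Alas2, Slc4a1 and Bpgm. They were chosen by gene name, not by their counts, and all 7 were found among the 56748 genes of the deposited table. Each was followed library by library in 3 Pontin cTG hearts and 3 WT hearts. Pontin cTG mice were made by pronuclear injection on a C57Bl/6 background and express human Pontin, with a flag tag, from a cDNA driven by the α-MHC promoter, which is active in cardiomyocytes, whereas the WT mice were littermates without the transgene. All 6 mice were males, 10 weeks old when treatment began. All, the WT controls included, then received Ang II at 1.5 mg/kg BW/day from a mini-osmotic pump for 14 days. No untreated heart thus enters any comparison. Total RNA of each heart was sequenced as 1 library, and no source used here says whether blood was flushed from the hearts.

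Hemoglobin, the oxygen carrier of the red cell, is a tetramer of alpha and beta globin chains, each holding a heme. Red cell precursors in the bone marrow and spleen make these chains, and since mammalian red cells lose their nucleus, the globin mRNA of circulating blood is carried over from those precursors and is richest in young red cells, the reticulocytes. Alas2 encodes the erythroid enzyme of the first step of heme synthesis, Slc4a1 encodes band 3, the anion exchanger of the red cell membrane, and Bpgm encodes the mutase that makes 2,3-bisphosphoglycerate, which lowers the oxygen affinity of hemoglobin. In RNA of a whole heart these transcripts are commonly taken to come from the blood in its vessels and chambers. Fewer cells of a type and less RNA per cell cannot be told apart in such bulk libraries.

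The genes lie on 4 chromosomes. On the GRCm39 coordinates of the table, Hba-a1 spans 32233511 to 32234465 and Hba-a2 spans 32246489 to 32247298, both on the plus strand of chromosome 11. Hbb-bs spans 103475741 to 103477303 and Hbb-bt spans 103461731 to 103463203, both on the minus strand of chromosome 7. Alas2 spans 149330371 to 149353634 on the plus strand of chromosome X, Slc4a1 spans 102239650 to 102257029 on the minus strand of chromosome 11, and Bpgm spans 34453142 to 34482548 on the plus strand of chromosome 6. All 7 are protein coding.

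The members of each globin pair share most of their sequence, which bears on how far their counts can be told apart. In the GENCODE M21 transcripts the coding sequences of Hba-a1 and Hba-a2, both 429 bases long, differ by 1 base, C381T. Those of Hbb-bs and Hbb-bt, both 444 bases long, also differ by 1 base, C417T. Positions are counted from 1 at the first base of the start codon, the first-named gene of the pair comes first, and both changes fall on position 3 of a codon. The stretches of 60 coding bases that hold these differences are printed to show how little separates the pairs, in lower case with the differing base as a capital.
Hba-a1, coding bases 351 to 410: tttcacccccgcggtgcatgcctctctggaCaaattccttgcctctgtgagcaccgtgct
Hba-a2, coding bases 351 to 410: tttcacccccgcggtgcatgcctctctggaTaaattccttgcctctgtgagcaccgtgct
Hbb-bs, coding bases 385 to 444: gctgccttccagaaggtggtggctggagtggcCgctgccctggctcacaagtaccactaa
Hbb-bt, coding bases 385 to 444: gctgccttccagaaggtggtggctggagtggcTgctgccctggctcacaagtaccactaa

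Of all windows of 100 bases, a common read length, 56.5% of those in Hba-a1 and 74.5% of those in Hba-a2 were found letter for letter in the other gene. The shares were 62.6% in Hbb-bs and 54.8% in Hbb-bt, and no window of Alas2, Slc4a1 or Bpgm occurred in another gene of the annotation. A single read from a shared window cannot be assigned to 1 gene of a pair, and how such reads were counted is not given in the sources used here. The split within a pair is therefore uncertain. The sums of alpha and of beta globin depend less on that split, but reads dropped for matching both genes would be missing from them, and their part was not tested.

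The promoters, here the 150 bases before the RefSeq gene start on GRCm38.p6, were compared for the letters they hold. They were searched on both strands for 4 short motifs of erythroid and core promoters: CACCC (letters bound by factors such as KLF1), then CCAAT (the box of that name), then AGATAA (known for GATA factors) and last ATATAA (like the TATA box). Of 32851 promoter windows of this length, 37.4% held the CACCC letters, 24.5% the CCAAT letters, 5.65% the GATA motif and 5.35% the TATA-like box. All matches are in capitals, on either strand, and the sequences are printed 5′ to 3′ on the strand of the gene.
Hba-a1, chr11:32283522-32283671, plus strand: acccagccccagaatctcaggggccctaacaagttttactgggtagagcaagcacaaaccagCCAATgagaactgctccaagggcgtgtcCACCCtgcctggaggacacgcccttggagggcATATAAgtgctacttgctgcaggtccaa
Hbb-bs, chr7:103827929-103828078, minus strand: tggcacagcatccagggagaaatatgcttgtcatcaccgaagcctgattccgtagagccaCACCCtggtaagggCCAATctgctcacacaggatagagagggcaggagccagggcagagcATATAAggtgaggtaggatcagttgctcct
Hbb-bt, chr7:103813924-103814073, minus strand: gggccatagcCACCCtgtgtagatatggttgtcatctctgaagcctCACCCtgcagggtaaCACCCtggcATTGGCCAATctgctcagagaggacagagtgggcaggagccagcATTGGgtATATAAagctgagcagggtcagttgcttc
Alas2, chrX:150547267-150547416, plus strand: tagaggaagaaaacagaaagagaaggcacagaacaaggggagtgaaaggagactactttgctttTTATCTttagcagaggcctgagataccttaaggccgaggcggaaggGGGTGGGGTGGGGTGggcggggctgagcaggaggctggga
Bpgm, chr6:34476206-34476355, plus strand: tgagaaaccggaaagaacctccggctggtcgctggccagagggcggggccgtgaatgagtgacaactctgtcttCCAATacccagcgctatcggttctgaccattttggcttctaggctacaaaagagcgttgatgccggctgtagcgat

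The promoter of Hba-a2, at chr11:32296342-32296491, is not printed because its RefSeq window, shifted by 3 bases, was identical to that of Hba-a1 over 297 of 297 bases compared. The windows of Hbb-bs and Hbb-bt were alike at 56.2% of 299 bases without gaps. All 4 globin promoters held matches of CACCC, of CCAAT and of ATATAA, with the TATA-like box starting 28 to 31 bases before the gene start. Hbb-bt held 3 CACCC matches and 3 CCAAT matches, of which 2 CCAAT matches lay on the reverse strand, 1 of them directly beside a forward match. Alas2 held 3 abutting CACCC matches and 1 AGATAA match, all on the reverse strand, and neither of the other motifs, whereas Bpgm held a single CCAAT match. Slc4a1 had no entry in the promoter table. These matches describe the letters of the windows and are not evidence of a bound factor.

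The depth of the libraries ran from 12436822 to 13194038 counts in WT and from 14584102 to 16888124 in Pontin cTG hearts, and mitochondrial transcripts took 23.8% to 26.7%. The tissue label matched its markers: all 10 cardiomyocyte genes listed passed the filter on low counts, with a summed level of 53474 to 63546 normalised CPM (counts per 1000000) per heart. Normalised CPM are counts relative to the library size after scaling by the trimmed mean of M values (TMM) in edgeR. Pontin cTG replicate 2 stood apart on the first principal component, which held 48.6% of the variance, with a score of 50.9 against -23.1 to 16.2 in the other hearts, so values without it are given beside the genotype comparison. The mouse Pontin gene Ruvbl1 measured 15.3, 15.7 and 15.4 normalised CPM in WT and 17.7, 17.7 and 17.0 in Pontin cTG hearts. The groups did not overlap, but the exact two-sided permutation p was 0.1, the smallest that 3 against 3 allows, and reads of a human transgene may not map to mouse Ruvbl1, so this checks the genotype labels only weakly.

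Together the 4 hemoglobin genes took between 0.0777% and 0.152% of the counts of a heart. Their summed level was 905, 1056 and 1538 normalised CPM in the WT hearts, in the order of their replicate numbers, and 1457, 1348 and 807 in the Pontin cTG hearts. WT replicate 3 and Pontin cTG replicates 1 and 2 were high, the other hearts were low, and the groups overlapped. The mean was 1167 ± 331 (SD, n = 3) in WT and 1204 ± 348 (SD, n = 3) in Pontin cTG hearts, a log2 ratio of means of 0.05. For scale, Mb, the oxygen-binding myoglobin of the cardiomyocyte itself, had 3446 to 4454 normalised CPM per kilobase of gene. Hbb-bs, the highest of the 7 genes on that scale, had 524 to 870. Reads dropped for matching Hbb-bt as well would lower the Hbb-bs values, and their part was not tested.

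**Figure D1:**
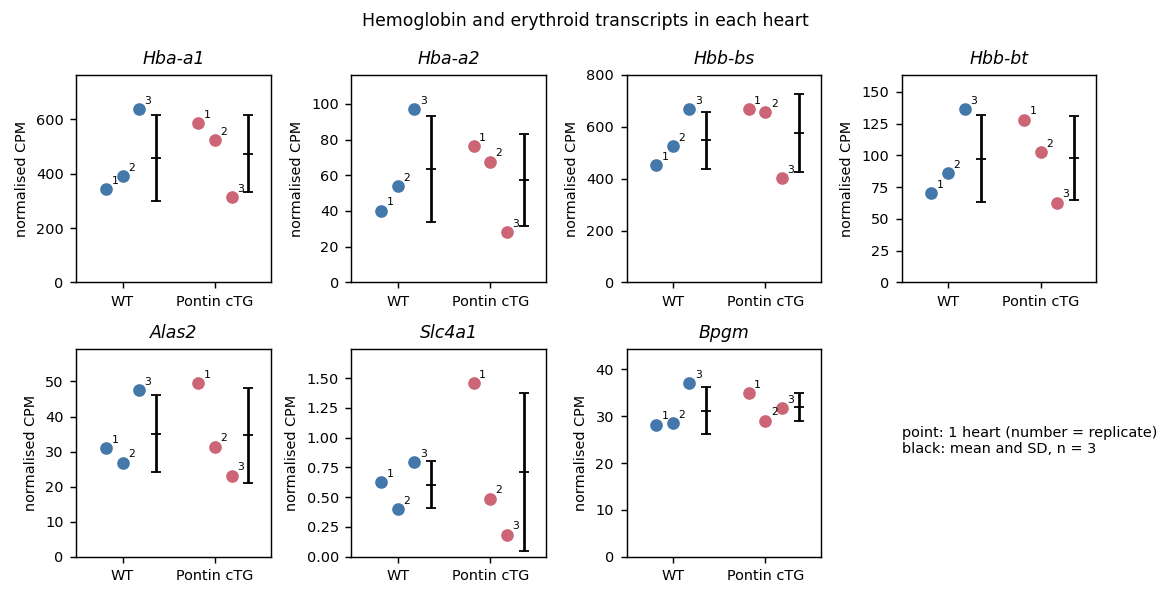
Normalised CPM (y axis, from 0) of the 7 genes in each heart, with WT in blue, Pontin cTG in red, the replicate number beside each point, and the mean and SD of 3 hearts in black. WT replicate 3 and Pontin cTG replicate 1 are the highest 2 hearts in every panel, and Pontin cTG replicate 3 is the lowest in all panels but Bpgm.

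Among the alpha globin genes, Hba-a1 had 343, 390 and 637 normalised CPM in WT and 585, 522 and 314 in Pontin cTG hearts. Its lowest and its highest heart were thus Pontin cTG replicate 3 and WT replicate 3, 2.03-fold apart, and the WT values lay within and just above the span of the Pontin cTG values. The log2 fold change of Pontin cTG over WT was 0.05 (SE 0.29), with a 95% interval from -0.60 to 0.70 and an adjusted p of 0.999 (edgeR quasi-likelihood test, Benjamini-Hochberg over all genes tested). Hba-a2, the paralog that differs by 1 coding base, had 40.2, 53.9 and 97.0 normalised CPM in WT and 76.4, 67.5 and 28.1 in Pontin cTG hearts. It had the widest spread of the globin genes, 3.45-fold from Pontin cTG replicate 3 to WT replicate 3. Its log2 fold change was -0.15 (SE 0.40), with a 95% interval from -1.07 to 0.76 and an adjusted p of 0.999 in edgeR.

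Among the beta globin genes, Hbb-bs had 451, 526 and 668 normalised CPM in WT and 667, 656 and 402 in Pontin cTG hearts. Its level in WT replicate 3 and in Pontin cTG replicates 1 and 2 differed by little. Its log2 fold change was 0.07 (SE 0.23), with a 95% interval from -0.45 to 0.59 and an adjusted p of 0.999 in edgeR. Hbb-bt had 70.2, 86.1 and 136 normalised CPM in WT and 128, 103 and 62.7 in Pontin cTG hearts. The order of the 6 hearts was the same as for Hbb-bs, and the difference between genotypes was 0.00 on the log2 scale (SE 0.30; 95% interval -0.68 to 0.68).

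Alas2, the erythroid 5-aminolevulinate synthase, had 31.0, 26.8 and 47.5 normalised CPM in WT and 49.4, 31.4 and 23.1 in Pontin cTG hearts. WT replicate 3 and Pontin cTG replicate 1 again stood above the other hearts, and the groups overlapped over nearly their whole span. The log2 fold change was -0.02 (SE 0.29; 95% interval -0.69 to 0.65). Bpgm had 28.1, 28.5 and 37.0 normalised CPM in WT and 34.9, 29.1 and 31.7 in Pontin cTG hearts. Its hearts were only 1.31-fold apart, and its log2 fold change of 0.03 (SE 0.15; 95% interval -0.31 to 0.37) had the smallest standard error of the 6 genes tested. The adjusted p was 0.999 for both genes in edgeR.

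Slc4a1 was barely detected and did not pass the filter on low counts. It had 8, 5 and 10 counts in the WT hearts and 21, 8 and 3 counts in the Pontin cTG hearts. The single library with 21 counts, Pontin cTG replicate 1, was one of the hearts with most hemoglobin, and the library with 3 counts, Pontin cTG replicate 3, was the one with least. The means were 0.606 ± 0.198 (SD, n = 3) and 0.709 ± 0.664 (SD, n = 3) normalised CPM, and the exact two-sided permutation p was 0.9. A difference in Slc4a1 was not detectable at this depth.

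Read against all genes, no genotype difference was called for the 7. At an adjusted p of 0.05, edgeR called 0 of 13888 genes tested (0%), and 2.05% of them lay under an unadjusted p of 0.05. Of the 7 genes, 6 were tested, and none of these (0 of 6) lay under it. WT and Pontin cTG hearts were fully separated for 8.33% of the genes tested and for 0 of the 6. The 6 log2 fold changes were positive for 4 and negative for 2, with a median of 0.02 beside a median of 0.00 over all genes tested. The intervals still allow differences of some size: for Hbb-bs they run from 0.733-fold to 1.50-fold and for Hba-a2 from 0.477-fold to 1.70-fold.

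Single hearts set the direction of these differences. Without WT replicate 3 the log2 fold change of the summed hemoglobin genes was 0.30, without Pontin cTG replicate 3 it was 0.27, and without Pontin cTG replicate 1 it was -0.11. Without Pontin cTG replicate 2, the heart that stood apart, it was -0.04, and the log2 fold changes of Hba-a1, Hba-a2, Hbb-bs and Hbb-bt were -0.02, -0.29, -0.04 and -0.03. Those of Alas2 and Bpgm were then 0.04 and 0.09. In none of the fits that left out a heart did a member pass an adjusted p of 0.05 in edgeR.

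**Figure D2:**
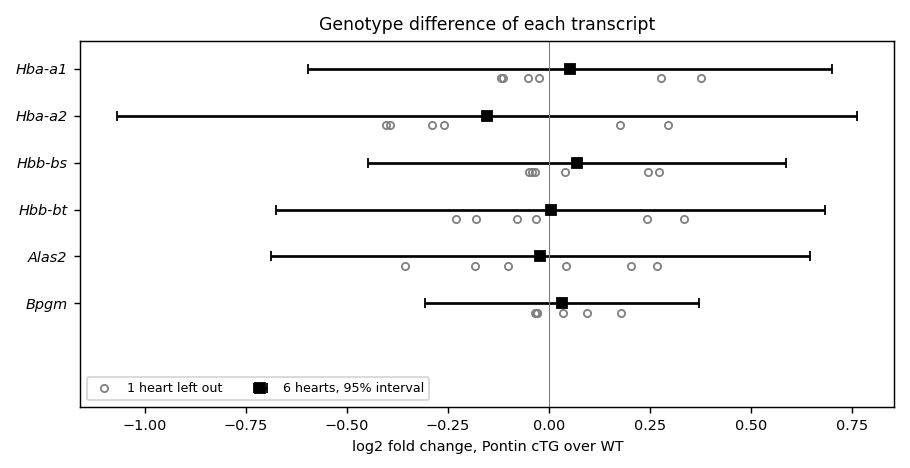
Log2 fold change of Pontin cTG over WT (x axis) for the 6 genes tested, with black squares and bars for the estimate and its 95% interval from 6 hearts in edgeR and grey circles for the estimates with 1 heart left out. All intervals span 0, and for each gene the circles fall on both sides of 0.

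The variation that the data do hold lay between hearts of the same genotype. The order of the hearts by summed hemoglobin, from low to high, was Pontin cTG replicate 3, WT replicate 1, WT replicate 2, Pontin cTG replicate 2, Pontin cTG replicate 1 and WT replicate 3. Each of the 4 hemoglobin genes had exactly this order, as 0.0936% of all genes tested did. The genes are part of the sum that sets this order, and paralogs share reads, so their likeness is in part built in. Alas2, Slc4a1 and Bpgm are not part of the sum. They all had their highest values in WT replicate 3 and Pontin cTG replicate 1, as did all 7 genes, against 7.21% of the genes tested. Alas2 and Slc4a1 had their lowest value in Pontin cTG replicate 3, as did 17.7% of the genes tested, whereas Bpgm was lowest in WT replicate 1. Slc4a1 was not among the genes tested, and its order rests on few counts. It had 10 counts in WT replicate 3 against 8 in WT replicate 1 and 8 in Pontin cTG replicate 2. Its lowest value was 3 counts, against 5 in WT replicate 2. Counting error alone could change such an order.

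**Figure D3:**
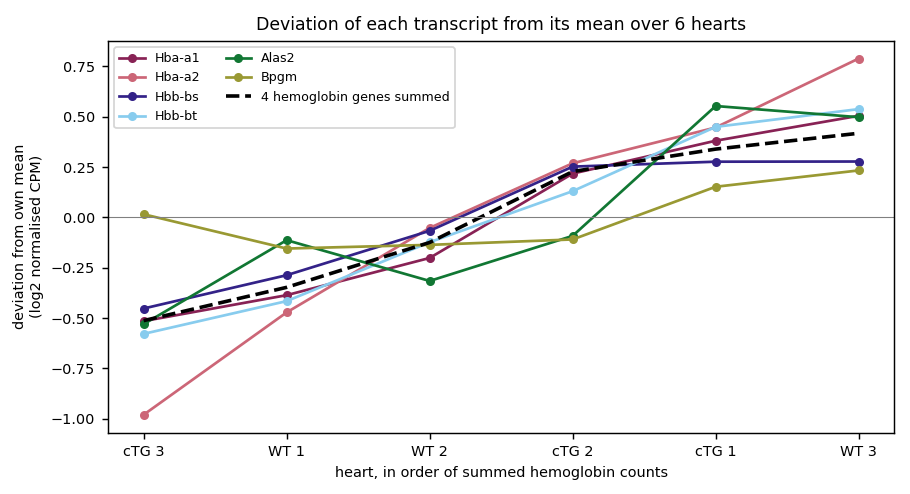
Deviation of 6 transcripts from their own mean over the 6 hearts (y axis, log2 of normalised CPM plus 0.5), with hearts ordered by summed hemoglobin and the sum as a dashed line. The globin lines rise together from Pontin cTG replicate 3 to WT replicate 3, Alas2 follows with departures in the middle, and Bpgm spans the narrowest range.

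The size of this variation differed between the genes. The SD within genotype, on the log2 scale, was 0.71 for Hba-a2, and only 2.17% of the genes tested had a larger one. It was 0.51 for Hbb-bt, 0.49 for Alas2, 0.47 for Hba-a1 and 0.36 for Hbb-bs, with 8.35%, 9.57%, 10.5% and 22.6% of genes above them. For Bpgm it was 0.18, and 65.4% of the genes tested varied more. Bpgm is also used outside red cells, and its level in these hearts moved little with that of hemoglobin: Bpgm had 21.5 to 39.3 counts per 1000 hemoglobin counts, with the highest ratio in Pontin cTG replicate 3, where hemoglobin was lowest. Alas2 had 34.2, 25.4 and 30.9 counts per 1000 hemoglobin counts in WT and 33.9, 23.3 and 28.6 in Pontin cTG hearts, a 1.47-fold range beside a 2.14-fold range of its level.

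The genes whose profile over the 6 hearts came nearest to summed hemoglobin were ranked by the root mean square difference of their deviations, among 13543 genes whose mean log2 CPM was 0 or more. Hba-a1, Hbb-bs and Hbb-bt held ranks 1 to 3, Alas2 rank 65, Hba-a2 rank 323 and Bpgm rank 780. Alas2 thus differed from the sum by 0.20 log2 units and Bpgm by 0.29. The sum is mostly Hba-a1 (39451 counts) and Hbb-bs (47762 counts), so the ranks of the globin genes are in part built in. The measure also weighs the size of the variation: Hba-a2 ordered the hearts as the sum did but varied more. The 10 nearest genes outside the group, at 0.12 to 0.15, were Col4a3, Adgrg1, Rps13-ps1, Epha2, C730034F03Rik, Gm3222, Carmil1, H2-Q6, Gm5786 and Kcnmb1. Genes outside the group thus came nearer to the sum than Alas2 did. Some of the 10 rest on few counts: C730034F03Rik and H2-Q6 had 8 to 23 per heart, whereas Adgrg1 had 623 to 1027. Counting error can shape the profile of such low genes. Adding 0.5 to normalised CPM of single genes, but not to the sum, also narrows their deviations. How many of 13543 genes would come this near by chance over 6 hearts was not tested.

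Within hemoglobin, beta globin took more of the counts than alpha globin in every heart, and the balance differed between hearts. Alpha globin made up 42.4%, 42.1% and 47.7% of the hemoglobin counts in WT and 45.4%, 43.7% and 42.4% in Pontin cTG hearts. The share was highest in WT replicate 3 (95% Wilson interval 47.0% to 48.4%) and next in Pontin cTG replicate 1 (44.7% to 46.1%), the hearts with most hemoglobin, and the intervals of the 3 hearts with least hemoglobin overlapped one another. Expressed per length of gene, beta globin exceeded alpha globin 1.14-fold to 1.44-fold in the 6 hearts. Reads dropped for matching both genes of a pair could shift this ratio, and their part was not tested. The ratio of beta to alpha counts was 1.28 ± 0.158 (SD, n = 3) in WT and 1.28 ± 0.0780 (SD, n = 3) in Pontin cTG hearts, and the genotypes differed by 0.01 on the log2 scale.

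The shares of the minor paralogs also differed between hearts. Hba-a2 held 10.5%, 12.1% and 13.2% of alpha globin counts in WT and 11.6%, 11.4% and 8.21% in Pontin cTG hearts. The lowest share, in Pontin cTG replicate 3 (95% Wilson interval 7.52% to 8.97%), lay below the intervals of all other hearts. Hbb-bt held 13.5%, 14.1% and 17.0% of beta globin counts in WT and 16.1%, 13.5% and 13.5% in Pontin cTG hearts, so that WT replicate 3 and Pontin cTG replicate 1 stood above the other hearts beyond counting error. The intervals cover counting error only, the genotypes overlapped for both shares, and the part that reads shared by paralogs play in them was not tested.

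**Figure D4:**
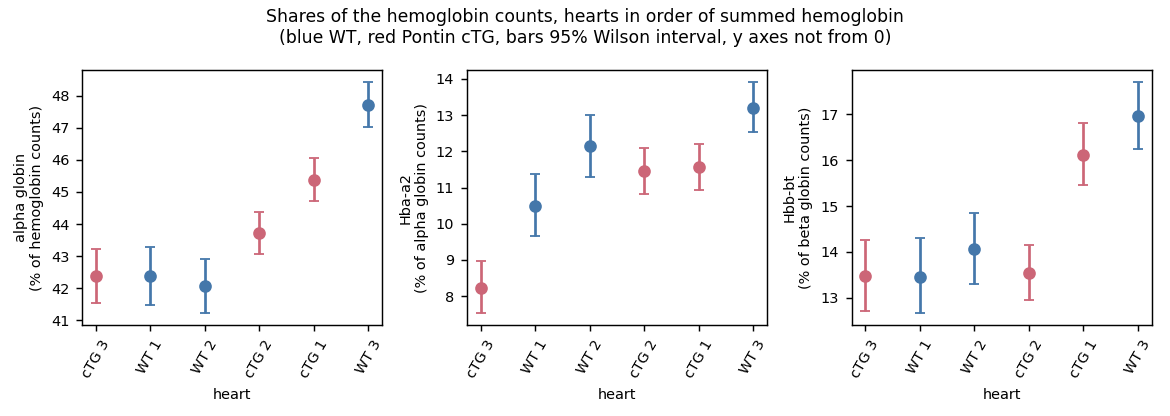
Shares of the hemoglobin counts in each heart (y axes in percent, not from 0), for alpha globin among hemoglobin, Hba-a2 among alpha globin and Hbb-bt among beta globin, with WT in blue, Pontin cTG in red and 95% Wilson intervals as bars. Hearts are ordered by summed hemoglobin, and all 3 shares are highest in WT replicate 3.

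Levels per kilobase of gene allow for gene length but not for reads shared by paralogs. Dropped reads of that kind would lower the globin genes by unequal amounts, so their places beside one another and other genes are uncertain. Hbb-bs stood first with a median of 770 normalised CPM per kilobase over the 6 hearts (524 to 870). Hba-a1 followed with 562 (387 to 785). The ranges of these 2 genes overlapped. Hbb-bt had a median of 134 (89.1 to 194) and Hba-a2 one of 91.0 (42.1 to 145), which also overlapped. Alas2 had 13.0 (9.60 to 20.6) and Bpgm 8.47 (7.84 to 10.3), again with overlap, and Slc4a1 was lowest with 0.114 (0.0377 to 0.298).

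The other globin genes help to place these levels. The embryonic genes Hba-x, Hbb-y, Hbb-bh1 and Hbb-bh2, active in the primitive red cells of the yolk sac or in the early embryo, had 0 counts in all 6 libraries, which allows a level of up to 0.178 to 0.241 CPM, the worth of 3 counts in the largest and the smallest library. The theta globin genes Hbq1b and Hbq1a had 9 and 2 counts over all libraries and the pseudogene Hba-ps4 had 3. Few reads were thus assigned to these related loci, beside 39451 for Hba-a1 and 47762 for Hbb-bs. Of the globins outside the red cell, Mb had a log2 fold change of 0.17 (SE 0.13) and cytoglobin, Cygb, one of 0.13 (SE 0.17), both with overlapping groups and an adjusted p of 0.999 in edgeR, and neuroglobin, Ngb, had 4 counts in all.

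Genes that are used almost only by red cells or their precursors were near 0. Among 15 genes of the red cell membrane and surface, 7 passed the filter, 3 of them higher and 4 lower in Pontin cTG hearts. The median of their log2 fold changes was -0.05 (0.05 without Pontin cTG replicate 2), with 0 at an unadjusted p under 0.05. Epb42, protein 4.2 of the red cell membrane, had 11 counts over all 6 libraries, Rhag had 1 and Icam4 had 0. The gene of this list with the most counts was Ank1, an ankyrin that anchors spectrin to the membrane, at 221 to 308 normalised CPM, and with Sptb and Tmod1 it is also used by muscle. The summed level of the list was lowest in Pontin cTG replicate 2, at 526 normalised CPM against 721 to 868 in the other hearts. In that heart Ank1 held 241, Tmod1 116 and Sptb 79.4 of it. The sum is thus mostly made of genes that muscle also uses, and cannot show whether red cell transcripts followed hemoglobin. Of 9 erythroid regulators, 5 were tested, with 3 higher, 2 lower and 0 at an unadjusted p under 0.05. The erythroid factors Gata1, Klf1 and Gfi1b had 3, 2 and 1 counts in all, and Nfe2 had 43. The other regulators of the list, which are also used by endothelial or other cells, were detected: Tal1 at 4.64 to 7.78 normalised CPM, Lmo2 at 18.9 to 28.1, Zfpm1 at 17.8 to 30.9 and Epor at 0.794 to 1.49. The most counts of this list went to Ldb1, at 36.3 to 55.4 normalised CPM.

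Of 19 genes of late erythroid cells and reticulocytes, 18 were in the table and 13 were tested, 9 higher and 4 lower in Pontin cTG hearts. The median of their log2 fold changes was 0.18, and 0.05 without Pontin cTG replicate 2, the heart that stood apart. At an unadjusted p under 0.05 there were 2 of 13, beside 2.05% of all genes tested, and none passed the adjusted threshold. WT and Pontin cTG hearts were fully separated for 3 of 13, beside 8.33% of all genes tested. Tfrc, the transferrin receptor that brings iron into cells, had 244, 252 and 147 normalised CPM in WT and 106, 130 and 97.5 in Pontin cTG hearts. Its level was lower in all Pontin cTG hearts than in any WT heart, with a log2 fold change of -0.95 (SE 0.22) and an adjusted p of 0.999 in edgeR (unadjusted 0.00216). Leaving out the heart that stood apart gave -1.08, and Tfrc is used by cells of many kinds besides red cell precursors. Fbxo7, a ubiquitin ligase subunit, had 9.30, 10.7 and 9.44 normalised CPM in WT and 12.1, 13.4 and 13.0 in Pontin cTG hearts, a log2 fold change of 0.39 (SE 0.15; unadjusted p 0.0243 and adjusted p 0.999 in edgeR). Prdx2, the peroxiredoxin abundant in red cells, had the most counts of the list, at 237 to 302 normalised CPM, with a log2 fold change of 0.17 (SE 0.13). The red cell carbonic anhydrase Car1 had 0 counts, and Hemgn and Trim58 had 1 and 2 in all.

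All 8 other genes of heme synthesis were tested, 3 of them higher and 5 lower, with a median log2 fold change of -0.05 (0.01 without Pontin cTG replicate 2) and 0 at an unadjusted p under 0.05. Alas1, the form of 5-aminolevulinate synthase used outside red cells, had the most counts, at 209 to 282 normalised CPM, with a log2 fold change of -0.17 (SE 0.15). WT and Pontin cTG hearts were fully separated for 2 of the 8, beside 8.33% of all genes tested. These were Alad and Urod, which had log2 fold changes of 0.20 (SE 0.12) and 0.26 (SE 0.12), with an adjusted p of 0.999 for both in edgeR. Of 10 genes that take up or break down heme and hemoglobin, 9 were tested, 5 higher and 4 lower, with a median of 0.05 (-0.11 if Pontin cTG replicate 2 is left out) and 1 at an unadjusted p under 0.05. That gene was Hmox1, the inducible heme oxygenase, with 9.15, 57.7 and 9.44 normalised CPM in WT and 8.87, 9.91 and 6.33 in Pontin cTG hearts. A single heart, WT replicate 2, carried its log2 fold change of -1.60 (SE 0.68; unadjusted p 0.0467 and adjusted p 0.999 in edgeR), and without that heart the value was -0.15. Lrp1, which clears heme bound to hemopexin among many other ligands, had the most counts of this list, at 48.1 to 152 normalised CPM.

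Relatives of Slc4a1 and Bpgm were expressed without a called difference. Of 8 other bicarbonate transporters and carbonic anhydrases, 7 were tested, 4 higher and 3 lower, with a median log2 fold change of 0.02 and 0 at an unadjusted p under 0.05. Slc4a3, the anion exchanger known from heart and brain, had the most counts, at 202 to 250 normalised CPM, with a median of 27.2 normalised CPM per kilobase beside 0.114 for Slc4a1. Of 6 genes neighbouring Bpgm in glycolysis, all 6 were tested, 4 higher and 2 lower, with a median of 0.01 and 0 at an unadjusted p under 0.05. Eno3, the muscle enolase, led this list at 920 to 1144 normalised CPM.

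Markers of other blood cells did not order the hearts as hemoglobin did. The 12 platelet genes summed to 27.0, 49.6 and 28.9 normalised CPM in WT and 22.7, 23.0 and 39.2 in Pontin cTG hearts. The highest platelet sums thus fell in WT replicate 2 and Pontin cTG replicate 3, which were low in hemoglobin. The 12 neutrophil genes summed to 3.36, 21.2 and 5.32 in WT and 15.8, 5.17 and 7.19 in Pontin cTG hearts, and the 7 B cell genes to 12.4, 17.4 and 10.6 and to 5.96, 17.4 and 14.0. The 7 T cell genes summed to between 0.693 and 1.64 normalised CPM, and none of them was tested. The counts past the filter were 7 of 12 for platelets, 5 of 12 for neutrophils and 3 of 7 for B cells, with 0 at an unadjusted p under 0.05 in each, and median log2 fold changes of -0.32, 0.60 and -0.08. Single hearts set these medians: without WT replicate 2 they were 0.05, 1.65 and 0.19, and without Pontin cTG replicate 1 they were -0.20, -0.23 and 0.24. The genes with the most counts in each were Pf4, a platelet chemokine, at 9.62 to 18.2 normalised CPM, Lcn2 at 0.984 to 9.79 and Ighm at 4.71 to 12.9. Gp1bb and Ly6g, defining markers of platelets and neutrophils, had 0 counts. Other markers of the same lists were detected, among them Gp1ba with 233 counts and Csf3r with 155 in all. The 0 counts thus do not show that a cell type was absent. The 10 cardiomyocyte genes, of which 4 were higher and 6 lower, had a median of -0.07 and 0 at an unadjusted p under 0.05. WT and Pontin cTG hearts were fully separated for 4 of these 10, beside 8.33% of all genes tested. These were Tnni3, Myl2 and Myl3, higher in Pontin cTG hearts, and Actc1, lower, each with an adjusted p of 0.999 in edgeR. The part of retained blood in the hemoglobin differences between hearts was not tested.

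**Figure D5:**
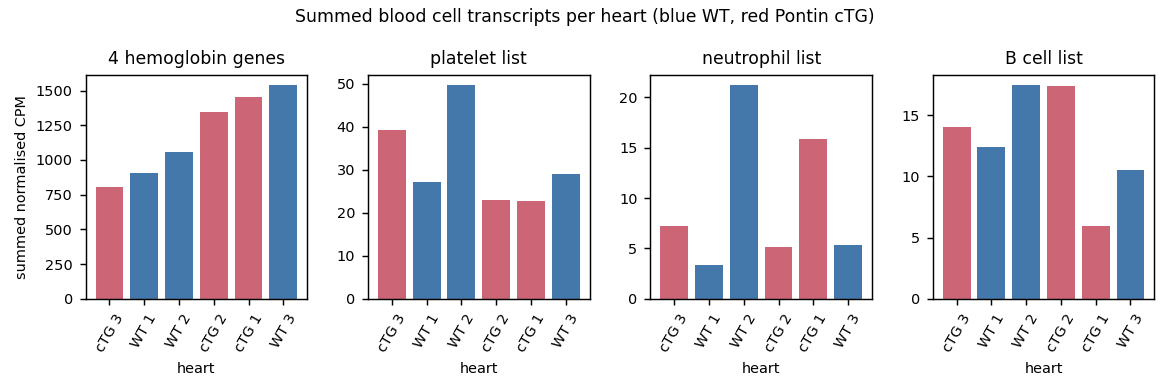
Summed normalised CPM (y axes from 0, each panel on its own scale) of the 4 hemoglobin genes and of the platelet, neutrophil and B cell lists in each heart, with WT in blue, Pontin cTG in red and hearts ordered by hemoglobin. Hemoglobin rises from 807 to 1538 from left to right by construction, and none of the other panels rises with it.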

How the data were processed

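Gene counts, whole numbers deposited by the authors without normalisation, were used for 3 WT and 3 Pontin cTG hearts. The study's methods name Trimmomatic, STAR, mm10 and Gencode M25, and the submitters' processing notes name fastp, HISAT2, featureCounts and GRCm39. The coordinates of 0 of the 7 genes matched GRCm38, so they are given as GRCm39. The strand setting and the handling of multi-mapping reads are not given in the sources used here.

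Genes with too few counts were dropped by filterByExpr at a minimum count of 10. The remaining 13888 were scaled by TMM and the genotypes compared, with no other term, by glmQLFit and glmQLFTest in edgeR 4.0.16 (R 4.3.3), with p-values adjusted by Benjamini-Hochberg. Single values were compared with exact two-sided permutation tests, which cannot give a p under 0.1. Scripts were tested on simulated data. The members, the gene lists and the tests were chosen with earlier results of these data known. Genes were named if they were members, other globins or Ruvbl1, led a list in level, passed an adjusted p of 0.05 or an unadjusted p of 0.05 in a list, or were among the 10 nearest profiles. Further list genes, among them markers at 0 and genes whose groups did not overlap, were named after their values were seen. Values of some list genes are not reported here. Alternatives were DESeq2 1.42.0, DESeq2 size factors within edgeR, library size alone, TMM without hemoglobin and mitochondrial genes, 2 other filters, protein-coding genes only, a replicate block, limma-voom (limma 3.58.1) with sample quality weights, and each heart left out. No library repeated another (lowest chi-square per gene between libraries, 5.62). Nothing names separate litters or extraction days, and p-values measure only the spread between these hearts. No columns of sample values were left unmatched.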

Additional observations from a re-analysis of the deposited data

How the results depend on the processing

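Under the alternatives no member passed an adjusted p of 0.05 in any of 96 fits (smallest adjusted p 0.879), while 24 fits of the 6 genes tested, and 1 of Slc4a1, turned the direction of the log2 fold change. Beyond fits that left out a heart, the turned values were -0.00077 for Hbb-bt in DESeq2, -0.0041 for Hbb-bt without a filter on low counts, 0.011 for Alas2 with library size alone, and 0.039 for Hba-a2 and 0.12 for Alas2 in limma-voom with sample quality weights. With 1 heart left out, the log2 fold change ran from -0.12 to 0.38 for Hba-a1, from -0.40 to 0.29 for Hba-a2, from -0.049 to 0.27 for Hbb-bs, from -0.23 to 0.33 for Hbb-bt, from -0.36 to 0.27 for Alas2, from -0.034 to 0.18 for Bpgm, from -0.03 to 0.66 for Slc4a1 where it passed the filter, from -0.11 to 0.30 for summed hemoglobin and from -0.09 to 0.07 for the log2 ratio of beta to alpha counts. The number of genes past an adjusted p of 0.05 was 0 with all hearts in edgeR (285 at an unadjusted p under 0.05), 1 in DESeq2 (217), 3 without a filter (478), 3 in limma-voom (794) and 0 to 3 with 1 heart left out, with 3 (686) without Pontin cTG replicate 2. Tfrc was past that threshold without a filter (log2 fold change -0.96, adjusted p 0.0437 in edgeR). With 1 heart left out, the median log2 fold change ran from -0.19 to 0.05 for the red cell membrane list, from 0.05 to 0.21 for the late erythroid list, from -0.08 to 0.22 for the regulators, from -0.07 to 0.01 for heme synthesis, from -0.11 to 0.13 for heme disposal, from -0.02 to 0.12 for bicarbonate transport, from 0.03 to 0.08 for glycolysis, from -0.64 to 0.05 for platelets, from -0.23 to 1.65 for neutrophils, from -0.40 to 0.24 for B cells and from -0.05 to 0.03 for cardiomyocytes. The cause of these changes was not tested.

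The replicate numbers gave correlations of 0.077, 0.43 and 0.19 between same-numbered hearts, and no source says that a number marks a shared litter or day. With the number as a replicate block, 0 genes passed an adjusted p of 0.05 (499 at an unadjusted p under 0.05), and the log2 fold changes were 0.07, -0.15, 0.06 and 0.01 for Hba-a1, Hba-a2, Hbb-bs and Hbb-bt, and -0.04 and 0.04 for Alas2 and Bpgm. Depth limits Slc4a1, with 55 counts in all, and the red cell markers near 0.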

Other observations

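WT replicate 2, a heart with little hemoglobin, held the highest sums of platelet genes (49.6 normalised CPM) and of neutrophil genes (21.2 normalised CPM). It also held the highest levels of Hmox1 (57.7), Lcn2 (9.79) and the haptoglobin-hemoglobin receptor Cd163 (35.2). Lcn2 is on the neutrophil list and makes up 9.79 of its sum, so the 2 values are not separate observations. Of the same list, S100a8 and S100a9 were highest in Pontin cTG replicate 1 (2.77 and 3.74), while Csf3r was highest in WT replicate 2 (3.11). The Alas2 level of WT replicate 2, 26.8 normalised CPM, was the lowest of the WT hearts. These values were noticed after the data had been seen, and their cause was not tested.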
